A study of Mus musculus with 4 samples.

Results

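The microRNA genes read by a whole-transcript array were compared in mouse skin labelled K5-Cre and in skin without K5-Cre. A microRNA gene was taken as a transcript cluster, the array's unit of several probes with 1 value, whose only gene symbol on the platform is Mir followed by digits or Mirlet7. Host genes with longer names, such as Mir99ahg, were left out. Of 35557 clusters on the array, 298 met this rule, and they carry 296 gene symbols, since Mir713 has 3 clusters. They were divided into the 40 clusters whose gene lies from Dlk1 to Dio3 on chromosome 12, an imprinted locus, and the 258 others, which lie on 20 chromosomes. A further 61 clusters hold a microRNA symbol among several symbols and were not counted as members. The locus was chosen by its log2 differences between these same arrays, K5-Cre minus no K5-Cre, which were known to be large, so the values of this comparison are a description and not a test of the choice.

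Total RNA of C57BL/6 skin was hybridised to 4 arrays, 2 in each group. The K5-Cre arrays, replicates 2 and 6, are labelled CflarF/F;K5-Cre;Tnfrsf1a+/-. The no K5-Cre arrays are labelled CflarF/F;Tnfrsf1a+/- for replicate 3 and CflarF/+;Tnfrsf1a+/- for replicate 1. All 4 samples thus carried at least 1 floxed allele of Cflar, which encodes the cell death inhibitor cFLIP, and were heterozygous for Tnfrsf1a, which encodes a TNF receptor. The comparison asks which genes might hold back epidermal differentiation and keratinocyte proliferation. The promoter in front of Cre is that of keratin 5, a gene of basal keratinocytes, while the RNA came from whole skin with all its cell types. The labels give no age, no sex and no number of animals per array, so the p-values measure the spread between these arrays only, which may be technical.

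Cflar, the targeted gene, did not check the labels. Its 3 clusters had log2 signals of 9.02 and 9.06, 8.03 and 8.16, and 9.69 and 9.71 on the K5-Cre arrays, against 8.25 and 8.16, 7.57 and 7.71, and 8.97 and 8.77 on the no K5-Cre arrays. All 3 were thus higher on the K5-Cre arrays, and every direction below rests on the labels alone. Over all clusters, Pearson's r was 0.985 between the K5-Cre arrays, 0.995 between the no K5-Cre arrays and 0.902 to 0.911 across groups. Over the 298 microRNA clusters it was 0.986 between the K5-Cre arrays, 0.996 between the no K5-Cre arrays and 0.766 to 0.811 across groups. A cluster is called past the test where limma's moderated test gave an adjusted p under 0.05, with Benjamini-Hochberg adjustment over all clusters and 2 arrays per group. By this rule 48.6% of all clusters passed, with 24.3% of all clusters higher and 24.3% lower on the K5-Cre arrays, which is the background for every count below.

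MicroRNAs are short RNAs cut by Drosha and Dicer out of a hairpin in a longer transcript, and they guide Argonaute proteins to messenger RNAs that pair with the seed, the bases near the microRNA's 5′ end. At the imprinted Dlk1-Dio3 locus the protein genes Dlk1, Rtl1 and Dio3 are expressed from the paternal chromosome. The noncoding RNAs Meg3, Rian and Mirg and a large set of microRNAs are expressed from the maternal chromosome, and the microRNAs lie along those noncoding transcripts, several of them opposite Rtl1. On this array the probes of a microRNA gene lie on its hairpin, so a value reads RNA that contains the hairpin sequence and does not measure the mature microRNA.

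The mature sequences of the locus members with large falls are given first, with pairs of close relatives side by side, followed by the pair of members that did not pass the test. All are printed 5′ to 3′ from RefSeq on mouse build GRCm38.p6, and capitals mark the seed, bases 2 to 8.
mmu-miR-377-3p (chr12:109740553-109740574, plus strand): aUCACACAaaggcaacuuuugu
mmu-miR-379-5p (chr12:109709065-109709085, plus strand): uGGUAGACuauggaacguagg
mmu-miR-379-3p (chr12:109709102-109709123, plus strand): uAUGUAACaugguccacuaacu
mmu-miR-411-3p (chr12:109710225-109710246, plus strand): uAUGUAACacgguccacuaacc
mmu-miR-380-3p (chr12:109711842-109711863, plus strand): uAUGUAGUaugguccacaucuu
mmu-miR-382-5p (chr12:109733781-109733802, plus strand): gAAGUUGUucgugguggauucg
mmu-miR-300-3p (chr12:109724363-109724384, plus strand): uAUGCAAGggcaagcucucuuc
mmu-miR-381-3p (chr12:109726870-109726891, plus strand): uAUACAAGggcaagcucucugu
mmu-miR-323-3p (chr12:109712558-109712578, plus strand): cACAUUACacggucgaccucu
mmu-miR-376a-3p (chr12:109723824-109723844, plus strand): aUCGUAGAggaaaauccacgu
mmu-miR-376b-5p (chr12:109723471-109723492, plus strand): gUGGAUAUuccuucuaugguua
mmu-miR-376c-5p (chr12:109722733-109722754, plus strand): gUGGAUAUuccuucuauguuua
mmu-miR-666-3p (chr12:109717140-109717161, plus strand): gGCUGCAGcgugaucgccugcu
mmu-miR-667-3p (chr12:109720061-109720083, plus strand): uGACACCUgccacccagcccaag
RefSeq held mature sequences for all 40 locus members, 76 sequences with 74 distinct seeds. Only 2 seeds were shared by 2 locus members. One was AUGUAAC in miR-379-3p and miR-411-3p, which match at 20 of 22 bases, and the other was UGGAUAU in miR-376b-5p and miR-376c-5p, which match at 21 of 22. miR-300-3p and miR-381-3p match at 19 of 22 bases but have different seeds. Apart from these pairs and from 2 seeds also found in a member outside the locus, the locus members carry different seeds.

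At the Dlk1-Dio3 locus, 38 of the 40 microRNA clusters were lower on the K5-Cre arrays and past the test, 0 were higher, and 2 did not pass. Their median log2 difference, K5-Cre minus no K5-Cre, was -2.76, and the values ran over -5.44 to 0.30. Of the 40, 37 were at least 2-fold lower and past the test, and 28 were at least 4-fold lower. The background is 9.33% of all clusters for the 2-fold count and 2.25% for the 4-fold count. Among the 258 other microRNA clusters, 68 were higher and past the test, 33 were lower and 157 did not pass, with a median difference of 0.19. Over all clusters the median difference was 0.09. The groups did not overlap for all 40 locus clusters, for 199 of the 258 others and for 80.2% of all clusters.

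The median signal of the 40 locus clusters was 5.55 and 5.91 on the K5-Cre arrays (replicates 2 and 6), against 8.81 and 8.52 on the no K5-Cre arrays (replicates 1 and 3). Both K5-Cre arrays thus lay far below both controls, and the CflarF/+ and CflarF/F controls lay close together. The signal was under the array's 25th percentile of all clusters for 23 and 22 of the 40 on the K5-Cre arrays, against 2 and 4 on the no K5-Cre arrays. The other 258 microRNA clusters had medians of 6.29 and 6.33 on the K5-Cre arrays, against 6.30 and 6.25 on the no K5-Cre arrays. Of these, 132 and 132 lay under the 25th percentile on the K5-Cre arrays, against 123 and 130 on the no K5-Cre arrays.

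**Figure D1:**
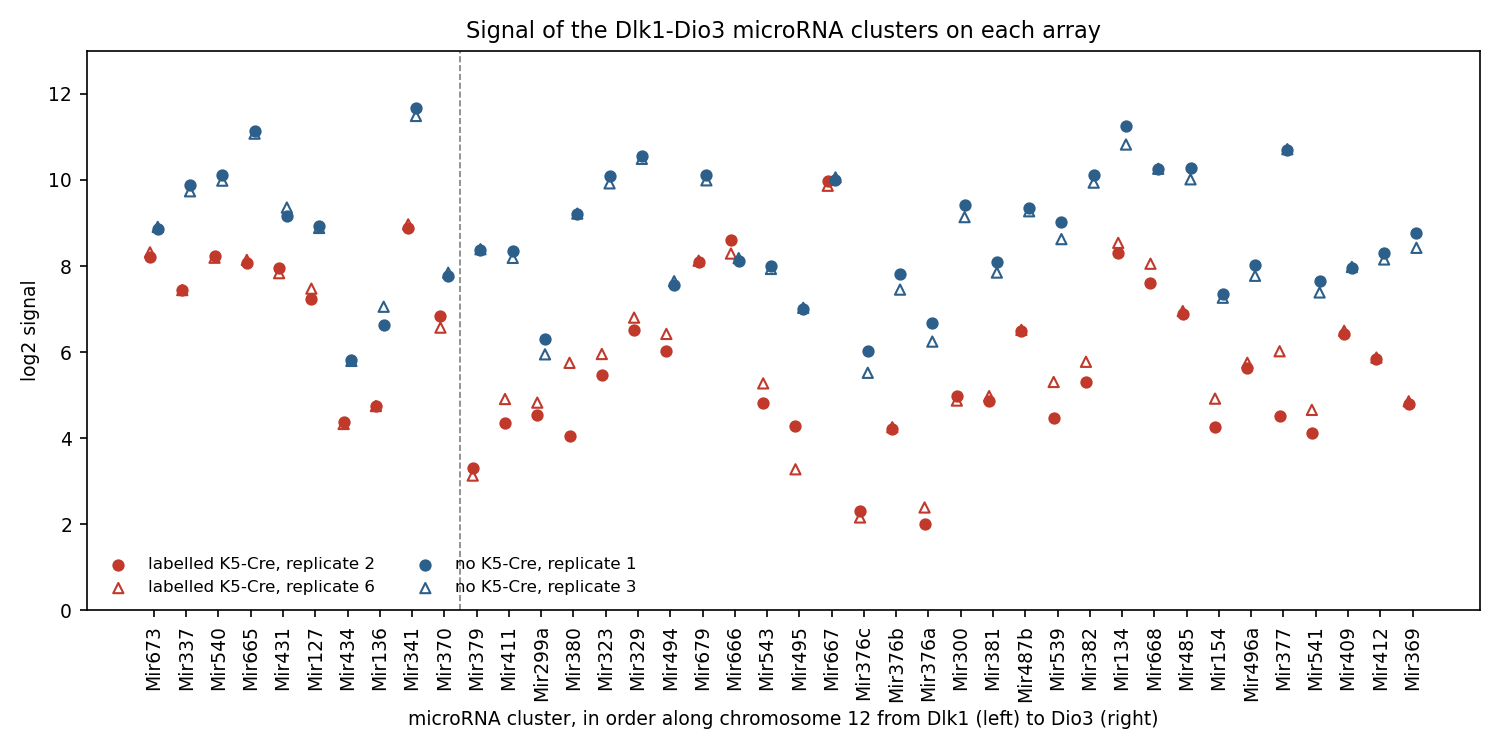
Log2 signal of the 40 Dlk1-Dio3 microRNA clusters on each array (vertical axis), in their order along chromosome 12 (horizontal axis, from Dlk1 to Dio3). Red stands for the K5-Cre arrays and blue for the no K5-Cre arrays, and the dashed line marks the largest gap between neighbours. The K5-Cre points lie below the no K5-Cre points for every cluster except Mir666, and for Mir667 they lie close together.

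Mir377 had the largest fall. Its log2 signal was 4.51 and 6.02 on the K5-Cre arrays, against 10.69 and 10.71 on the no K5-Cre arrays. The K5-Cre arrays lay 1.51 apart on this cluster, yet both were far below the controls. The difference was -5.44 ± 0.48 (SE, n = 2 per group, limma adjusted p = 0.00123). Mir379, the most Dlk1-near member of the distal stretch described below, had 3.31 and 3.13 on the K5-Cre arrays, against 8.37 and 8.39 on the no K5-Cre arrays. Here the replicates of each group were close together, and the difference was -5.15 ± 0.12 (adjusted p = 0.000118). The K5-Cre signals of both lay under the 25th percentile of all clusters, 6.36 and 6.37 on those arrays, as did those of 11 of the 12 largest falls. No detection call was used, so how far such dim signals stood above background was not tested, and the size and order of these falls rest on them.

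Mir382 had 5.31 and 5.78 on the K5-Cre arrays, against 10.12 and 9.94 on the no K5-Cre arrays, a difference of -4.49 ± 0.18. Mir300 had 4.97 and 4.88 on the K5-Cre arrays, against 9.41 and 9.14 on the no K5-Cre arrays, a difference of -4.35 ± 0.14. Mir381, whose mature sequence is close to that of Mir300, had 4.86 and 4.98 on the K5-Cre arrays, against 8.09 and 7.85 on the no K5-Cre arrays, a difference of -3.05 ± 0.13. In all 3 the groups lay much farther apart than the replicates of either group. Mir380 was less even, with 4.05 and 5.75 on the K5-Cre arrays, against 9.20 and 9.22 on the no K5-Cre arrays (-4.31 ± 0.54). The gap of 1.70 between its K5-Cre arrays was the largest of the locus, where the median gap was 0.17 between the K5-Cre arrays and 0.14 between the no K5-Cre arrays.

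The pair with the shared seed AUGUAAC fell together. Beside Mir379, Mir411 had 4.36 and 4.91 on the K5-Cre arrays, against 8.34 and 8.19 on the no K5-Cre arrays (-3.63 ± 0.21). The miR-376 group, whose precursors are known to be edited by ADAR enzymes, also fell as a group. Mir376a had 2.001 and 2.39 on the K5-Cre arrays, against 6.69 and 6.24 on the no K5-Cre arrays (-4.27 ± 0.23). Mir376c, with 2.31 and 2.16 on the K5-Cre arrays, against 6.03 and 5.52 on the no K5-Cre arrays, differed by -3.54 ± 0.22. Mir376b, with 4.22 and 4.26 on the K5-Cre arrays, against 7.82 and 7.45 on the no K5-Cre arrays, differed by -3.40 ± 0.16. The K5-Cre signals of Mir376a and Mir376c were at the low end of the array's range. The other members among the 12 largest falls of all 298 clusters were Mir323 (-4.30), Mir539 (-3.93), Mir329 (-3.86) and Mir369 (-3.76), so all 12 lie at the locus.

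Several members are best known from neurons. Mir134, which limits dendritic spine growth, had 8.29 and 8.54 on the K5-Cre arrays, against 11.25 and 10.82 on the no K5-Cre arrays (-2.62 ± 0.18, adjusted p = 0.000649). Mir485, also studied at synapses, had 6.88 and 6.95 on the K5-Cre arrays, against 10.28 and 10.01 on the no K5-Cre arrays (-3.23 ± 0.13). In both the groups lay far apart.

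The members opposite Rtl1 showed smaller differences. Mir127, which in mice is antisense to Rtl1 and directs its cleavage, had 7.24 and 7.47 on the K5-Cre arrays, against 8.92 and 8.88 on the no K5-Cre arrays (-1.54 ± 0.12). Mir431 had 7.96 and 7.83 on the K5-Cre arrays, against 9.16 and 9.36 on the no K5-Cre arrays (-1.36 ± 0.12). Mir434 had 4.37 and 4.33 on the K5-Cre arrays, against 5.81 and 5.80 on the no K5-Cre arrays (-1.46 ± 0.12). Mir136, also opposite Rtl1, had 4.75 and 4.75 on the K5-Cre arrays, against 6.64 and 7.05 on the no K5-Cre arrays (-2.10 ± 0.17). In all 4 the groups did not overlap and all 4 fell. Mir341 and Mir370 lie within Rian. Mir341 had 8.88 and 8.97 on the K5-Cre arrays, against 11.67 and 11.49 on the no K5-Cre arrays (-2.65 ± 0.11). Mir370 had 6.84 and 6.57 on the K5-Cre arrays, against 7.77 and 7.84 on the no K5-Cre arrays (-1.11 ± 0.13), so the pair in 1 host gene differed in size.

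The smallest fall past the test was that of Mir673, with 8.20 and 8.32 on the K5-Cre arrays, against 8.87 and 8.91 on the no K5-Cre arrays (-0.63 ± 0.10, adjusted p = 0.00800). It is the member nearest to Dlk1, and it no longer passed once no K5-Cre replicate 1 (-0.65) or replicate 3 (-0.61) was left out. Mir667 did not pass, with 9.98 and 9.86 on the K5-Cre arrays, against 9.99 and 10.06 on the no K5-Cre arrays (-0.10 ± 0.10, adjusted p = 0.411). All 4 of its values lay close together. Mir666 was the only locus member with a positive difference, at 8.61 and 8.29 on the K5-Cre arrays, against 8.12 and 8.18 on the no K5-Cre arrays (0.30 ± 0.14, adjusted p = 0.132). It did not pass, except without K5-Cre replicate 6, where the difference was 0.46. Both lie among members that fell, Mir666 between Mir679 (-1.94) and Mir543 (-2.91) and Mir667 between Mir495 (-3.24) and Mir376c.

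The locus members lie in 2 stretches separated by a gap of 90.8 kb, a split made after the values were seen. The 10 members nearer Dlk1, Mir673 to Mir370, span 46.3 kb, and the 30 nearer Dio3, Mir379 to Mir369, span 34.4 kb. The 10 proximal members had a median difference of -1.69 and ran over -3.01 (Mir665) to -0.63 (Mir673). The 30 distal members had a median of -3.18 and ran over -5.44 to 0.30, so the ranges overlapped. On the K5-Cre arrays the proximal medians were 7.70 and 7.65, against 9.04 and 9.13 on the no K5-Cre arrays. The distal medians were 4.91 and 5.75 on the K5-Cre arrays, against 8.35 and 8.29 on the no K5-Cre arrays. The stretches also differed in the GC content of their hairpins, with medians of 56.4% over the 10 proximal and 42.3% over 29 distal members, and their part in the difference was not tested.

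The other genes of the locus were of both kinds. Dlk1, a paternally expressed membrane protein of progenitor cells, had 8.33 and 9.18 on the K5-Cre arrays, against 12.99 and 12.95 on the no K5-Cre arrays (-4.21 ± 0.28, adjusted p = 0.000583). Meg3, the maternally expressed noncoding RNA next to it, had 9.29 and 10.24 on the K5-Cre arrays, against 13.03 and 12.96 on the no K5-Cre arrays (-3.23 ± 0.31). Rian, a maternally expressed host of small RNAs, had 6.46 and 6.59 on the K5-Cre arrays, against 9.81 and 9.66 on the no K5-Cre arrays (-3.21 ± 0.12). In these 3 the K5-Cre arrays lay far below both controls. Rtl1, the paternally expressed gene derived from a retrotransposon, fell by 1.67 ± 0.10 on the log2 scale. The cluster that carries the symbols of Mirg and Mir410 together, and so is no member, fell by 4.38 ± 0.29.

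Dio3, the paternally expressed deiodinase that inactivates thyroid hormone and the far border of the locus, went the other way. It had 7.32 and 6.97 on the K5-Cre arrays, against 5.91 and 6.04 on the no K5-Cre arrays (1.17 ± 0.15, adjusted p = 0.00387). Of the genes flanking the locus, Begain (-0.18), Wdr25 (0.16) and Wars (0.04) did not pass the test. Ppp2r5c, a phosphatase subunit gene on the far side of Dio3, has 4 clusters, of which the brightest fell (-0.70 ± 0.15) and the other 3 did not pass (0.30, 0.08 and 0.001). Of the 7 other microRNA clusters on chromosome 12, 3 were higher and past the test, 0 were lower and 4 did not pass, with differences of 0.11 to 1.03.

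**Figure D2:**
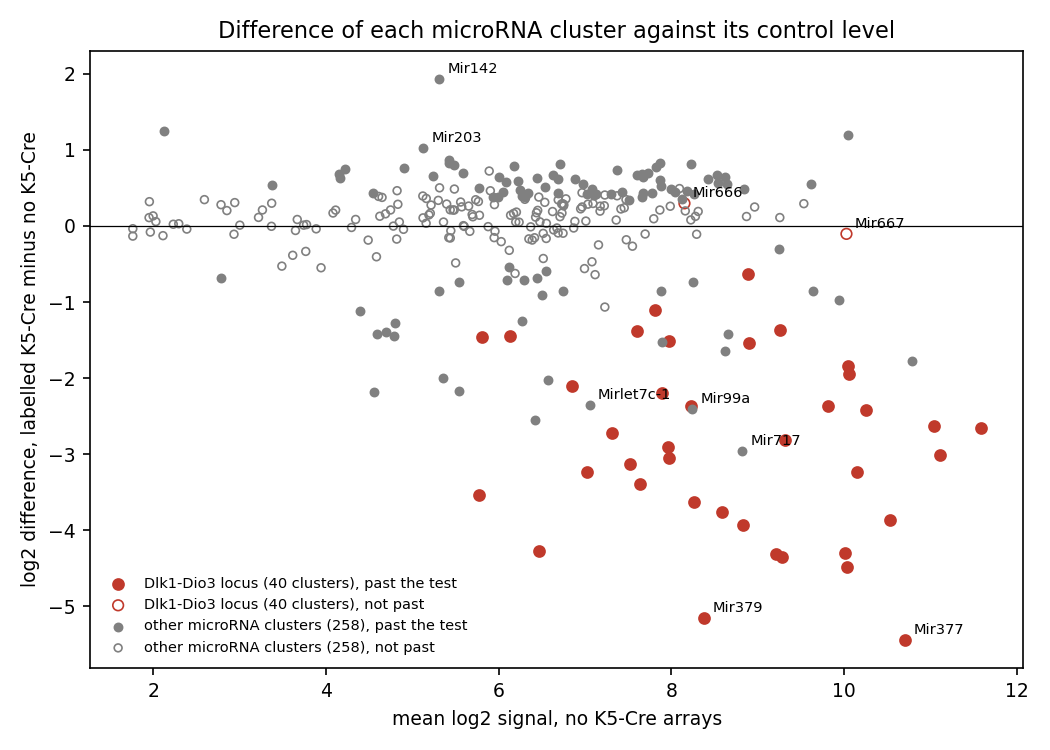
Log2 difference, K5-Cre minus no K5-Cre (vertical axis), against the mean log2 signal of the no K5-Cre arrays (horizontal axis) for the 40 locus clusters in red and the 258 others in grey. Filled points passed the test and open points did not. The locus clusters lie at -5.44 to 0.30 and the others at -2.95 to 1.93.

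The hairpins of 3 locus members show how unlike these sequences are in base composition, with which the array signal varied. They are the precursors of the largest fall, of the AU-rich Mir376a and of the GC-rich Mir667, which did not pass the test. They are printed from RefSeq on GRCm38.p6 with the mature arms in capitals.
Mir377 hairpin (chr12:109740510-109740577, plus strand): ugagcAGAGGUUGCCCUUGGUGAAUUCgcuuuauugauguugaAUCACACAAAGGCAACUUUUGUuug
Mir376a hairpin (chr12:109723781-109723848, plus strand): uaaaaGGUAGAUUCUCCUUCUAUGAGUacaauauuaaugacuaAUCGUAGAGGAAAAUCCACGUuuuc
Mir667 hairpin (chr12:109720006-109720097, plus strand): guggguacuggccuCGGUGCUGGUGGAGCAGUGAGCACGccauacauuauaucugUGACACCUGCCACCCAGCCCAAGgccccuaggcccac
The GC content is 41.2% for Mir377, 32.4% for Mir376a and 62.0% for Mir667. A hairpin sequence was held for 39 locus members, all except Mir666. Across these 39, Spearman's rho of hairpin GC content with mean log2 signal was 0.83 on K5-Cre arrays and 0.57 on no K5-Cre arrays. Across 221 other members it was 0.77 on the K5-Cre arrays and 0.68 on the no K5-Cre arrays. These are descriptions over clusters that share the same 4 arrays, and the signal of 1 cluster cannot be set against that of another as an amount of RNA. GC content also ran with the difference itself, with rho of 0.55 at the locus and 0.48 elsewhere.

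The differences, by which the locus was chosen, are also given by band of GC content. Under 40% GC the median difference was -3.54 over 7 locus members and -0.08 over 29 others. From 40 to 50% GC it was -3.09 over 18 locus members and 0.11 over 97 others. From 50 to 60% GC it was -2.37 over 9 locus members and 0.28 over 74 others. From 60% GC it was -1.36 over 5 locus members and 0.44 over 21 others. In both sets the median was higher in each band richer in GC. The part of base composition in these differences was not tested.

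**Figure D3:**
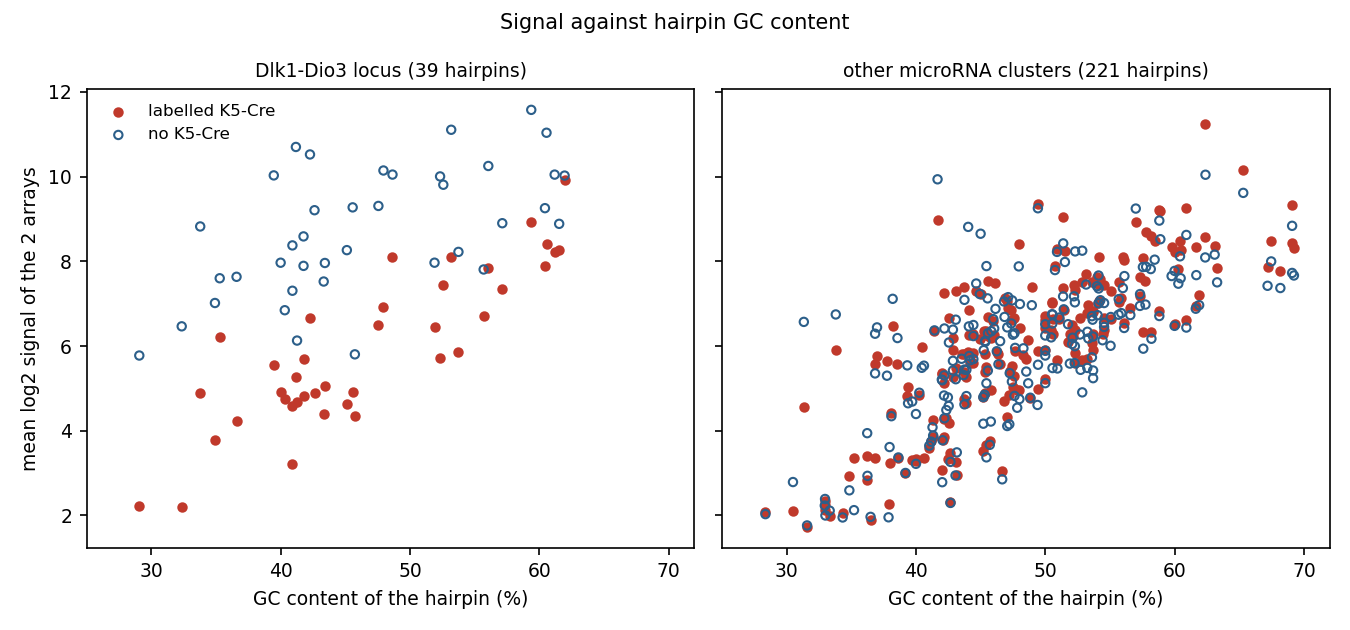
Mean log2 signal of the 2 arrays of a group (vertical axis) against the GC content of the RefSeq hairpin (horizontal axis) for 39 locus members (left) and 221 other members (right). Red filled points are the K5-Cre arrays and blue open points the no K5-Cre arrays. For every locus member shown the blue point lies above the red one, closely so for Mir667, while in the other members both colours overlap. Mir666, the locus member with a positive difference, has no hairpin sequence and is not shown.

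The size of the falls differed between the deposited tables. The authors' deposited table lists only clusters that moved at least 4-fold relative to no K5-Cre replicate 1. It holds 1396 of all 35557 clusters, among them 26 of the 40 locus members and 4 of the 258 others. Over these 26 the median difference was -2.61 in the authors' deposited table, set beside -3.23 for the same members in the series table. All 26 had the larger fall in the series table. Mir376a was farthest apart, at -2.58 in the authors' deposited table and -4.27 in the series table. For Mir377 the values were -4.81 in the authors' deposited table and -5.44 in the series table, and for Mir379 -3.84 and -5.15 in the same order. The authors' deposited table gives these 26 clusters 18 to 33 probes each (median 25) and puts all 26 in cross-hybridisation type 1, the platform's class for probes unique to a transcript.

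Markers of several cell types of whole skin moved in the same comparison. On average over their members, 7 fibroblast markers had log2 signals of 9.24 and 9.29 on the K5-Cre arrays, against 12.11 and 12.06 on the no K5-Cre arrays, and 7 of 7 fell. The 10 skeletal muscle markers averaged 7.55 and 7.78 on the K5-Cre arrays, against 11.37 and 11.23 on the no K5-Cre arrays, and 10 of 10 fell. Of 6 endothelial markers 5 fell (averages of 7.78 and 7.63 on the K5-Cre arrays, against 10.02 and 10.08 on the no K5-Cre arrays). Of 6 adipocyte markers 5 fell (7.71 and 7.48 on the K5-Cre arrays, against 9.67 and 9.73 on the no K5-Cre arrays), and 6 of 6 mast cell markers fell (7.06 and 7.73 on the K5-Cre arrays, against 10.31 and 10.43 on the no K5-Cre arrays). Of 8 keratinocyte markers 5 rose (12.87 and 12.60 on the K5-Cre arrays, against 11.79 and 11.75 on the no K5-Cre arrays), so keratinocyte genes gave bright signals on all 4 arrays. No marker is absent in the sense of a zero on this scale, and the lowest single value of any marker list was 4.89. Fewer cells of a type and less RNA per cell cannot be told apart in whole skin, and the part of these cell types in the falls at the locus was not tested.

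Outside the locus, the 12 largest rises were led by Mir142, a microRNA of blood cell lineages. Mir142 had 7.18 and 7.31 on the K5-Cre arrays, against 5.27 and 5.35 on the no K5-Cre arrays. The groups lay far apart with close replicates, and the rise was 1.93 ± 0.11 (adjusted p = 0.000437), or 3.82-fold. The K5-Cre arrays also had 6 of 6 neutrophil markers higher (averages of 11.93 and 12.12 on the K5-Cre arrays, against 6.34 and 6.33 on the no K5-Cre arrays). Of the macrophage markers 6 of 6 were higher too (11.10 and 11.84 on the K5-Cre arrays, against 9.01 and 9.06 on the no K5-Cre arrays), and their part in the rise of Mir142 was not tested. The other 11 rises were Mir29b-1 (1.24), Mir692-1 (1.19), Mir203 (1.03), Mir713 (0.86 in the named cluster), Mir9-3 (0.83), Mir680-1 (0.83), Mir150 (0.82), Mir301b (0.81), Mir192 (0.80), Mir129-2 (0.79) and Mir330 (0.78). Mir29b-1 was dim, with 3.08 and 3.65 on the K5-Cre arrays, against 2.12 and 2.13 on the no K5-Cre arrays. Its neighbour Mir29a did not pass (-0.005). The other clusters of Mir713 were not among these 12 rises. Of the 258 clusters outside the locus 4 were at least 2-fold higher and past the test, set beside 6.04% of all clusters.

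Many calls on these smaller rises were lost when a no K5-Cre array was left out, while the median difference of the 258 stayed between 0.14 and 0.19 with any 1 array left out. Of the 258 clusters outside the locus, 68 were higher and past the test with all arrays, but 6 without no K5-Cre replicate 1 and 3 without no K5-Cre replicate 3. In the same fits 16 and 18 were lower, in place of 33, and 37 and 37 of the locus members were lower, in place of 38. The background was then also lower. Without replicate 1, 15.3% of all clusters passed, 5.88% higher and 9.39% lower, and without replicate 3, 15.9% passed, 6.09% higher and 9.77% lower. Without no K5-Cre replicate 1, the comparison is with the CflarF/F control that the series names.

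Among 10 microRNAs of inflammation and wounds with a cluster, 7 rose, 0 fell and 3 did not pass, with a median difference of 0.55. Mir155, induced in activated immune cells, had 7.41 and 7.18 on the K5-Cre arrays, against 6.61 and 6.64 on the no K5-Cre arrays (0.67 ± 0.12). Mir146b, a relative of the NF-kB-induced miR-146a, had 6.65 and 6.64 on the K5-Cre arrays, against 5.91 and 6.10 on the no K5-Cre arrays (0.64 ± 0.12). Mir150, abundant in mature lymphocytes, had 9.28 and 8.82 on the K5-Cre arrays, against 8.28 and 8.18 on the no K5-Cre arrays (0.82 ± 0.18). The groups did not overlap in these 3. Mir31, known to rise in wounded epidermis, had a difference of 0.47 ± 0.11, and Mir212 and Mir132, neighbours in 1 transcript, had 0.65 ± 0.10 and 0.39 ± 0.12. Mir221 (0.31), Mir222 (0.14) and the cluster named Mir146 (0.11) did not pass. With no K5-Cre replicate 1 or 3 left out, 1 of the 10 rose, and the median was 0.54 and 0.55.

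Among 10 epidermal microRNAs 4 rose, 0 fell and 6 did not pass, with a median of 0.38. Mir203, which promotes keratinocyte differentiation by repressing p63, had 6.42 and 5.87 on the K5-Cre arrays, against 5.09 and 5.15 on the no K5-Cre arrays (1.03 ± 0.20, adjusted p = 0.0135). Mir205, a microRNA of basal keratinocytes, had 7.01 and 6.21 on the K5-Cre arrays, against 5.91 and 5.87 on the no K5-Cre arrays (0.72 ± 0.27, adjusted p = 0.0767). Its groups did not overlap, but it did not pass. Of the miR-200 family, which keeps epithelial identity by repressing Zeb factors, Mir200c had a rise of 0.62 ± 0.19, while Mir200a (0.26), Mir141 (0.11) and Mir200b (-0.03) did not pass. Mir34a, a target of p53, rose by 0.50 ± 0.15, and Mir24-2, which with Mir23a and Mir27a forms 1 cluster on chromosome 8, rose by 0.66 ± 0.13. When no K5-Cre replicate 1 or 3 was left out, 0 of the 10 passed, Mir203 included, and the list's median was 0.40 and 0.31. The 5 keratinocyte markers that rose are given above, and their part was not tested.

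The mature sequences of 4 members outside the locus are given for the results that follow, with the seed in capitals. They are the keratinocyte microRNA miR-203-3p and 3 members of the miR-99 and let-7 transcripts on chromosomes 16 and 9.
mmu-miR-203-3p (chr12:112130927-112130948, plus strand): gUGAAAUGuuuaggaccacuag
mmu-miR-99a-5p (chr16:77598940-77598961, plus strand): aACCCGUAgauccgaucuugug
mmu-miR-100-5p (chr9:41531437-41531458, plus strand): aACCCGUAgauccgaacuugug
mmu-let-7c-5p (chr16:77599672-77599693, plus strand): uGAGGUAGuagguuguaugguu
miR-99a-5p and miR-100-5p match at 21 of 22 bases and share the seed ACCCGUA. Mir99a had 5.88 and 5.77 on the K5-Cre arrays, against 8.25 and 8.23 on the no K5-Cre arrays (-2.41 ± 0.10). Mirlet7c-1, its neighbour on chromosome 16, had 4.66 and 4.72 on the K5-Cre arrays, against 6.99 and 7.11 on the no K5-Cre arrays (-2.36 ± 0.11). In both the groups lay more than 2 log2 units apart. Of the 4 clusters of their host transcript Mir99ahg, 3 fell, by 3.34, 2.83 and 2.57, and 1 did not pass (-0.26). Mir125b-2, also of that transcript, had 3.54 and 3.33 on the K5-Cre arrays, against 3.73 and 3.80 on the no K5-Cre arrays (-0.33 ± 0.16) and did not pass. The related set on chromosome 9 was uneven in the same way, since Mir100 fell by 1.25 ± 0.11 while Mirlet7a-2 (-0.17) and Mir125b-1 (0.21) did not pass, within a host, Mir100hg, that fell by 0.73 ± 0.16. Mir99a and Mir100 were chosen after their values were seen.

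Over the let-7 family, which shares the seed GAGGUAG and restrains growth and stem cell genes, 2 of 9 clusters rose, 2 fell and 5 did not pass, with a median of -0.01. Beside Mirlet7c-1, Mirlet7f-1 fell by 0.73 ± 0.12. Mirlet7a-1, its close neighbour on chromosome 13, rose by 0.58 ± 0.12, and Mirlet7i rose by 0.43 ± 0.10. Only 1 of the 9 passed, and was lower, without no K5-Cre replicate 1 or 3. In the miR-17-92 family, microRNAs of proliferating cells, 2 of 13 rose (Mir20a by 0.75 ± 0.18 and Mir93 by 0.40 ± 0.12), 0 fell and 11 did not pass, with a median of 0.22. The calls of Mir20a and Mir93 did not hold once either no K5-Cre array was left out. The family's median was then 0.26 without replicate 1 and 0.18 without replicate 3. It was 0.18 without K5-Cre replicate 2 and 0.30 without K5-Cre replicate 6.

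The muscle microRNAs were mostly lower. Of 7 with a cluster 4 fell, 1 rose and 2 did not pass, with a median of -0.86. Mir1a-2, a microRNA of heart and skeletal muscle, had 2.20 and 2.54 on the K5-Cre arrays, against 4.53 and 4.57 on the no K5-Cre arrays (-2.18 ± 0.18). Mir206, specific to skeletal muscle, had 3.42 and 3.26 on the K5-Cre arrays, against 4.79 and 4.79 on the no K5-Cre arrays (-1.45 ± 0.14). The groups were far apart in both, at low signal. Mir1a-1 (-1.42 ± 0.16) and Mir133a-1 (-0.86 ± 0.13) also fell. Mir499, in an intron of the slow myosin gene Myh7b, rose by 0.69 ± 0.12. With either no K5-Cre array left out, 3 of the 7 fell and 0 rose. The 10 skeletal muscle markers that fell are given above, and their part was not tested.

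Of 14 stromal and vascular microRNAs 4 rose, 5 fell and 5 did not pass, with a median of -0.15. Mir126a, the endothelial microRNA inside Egfl7, had 3.70 and 3.34 on the K5-Cre arrays, against 4.87 and 4.72 on the no K5-Cre arrays (-1.28 ± 0.18). Mir10b, within the Hox genes, had 3.31 and 3.30 on the K5-Cre arrays, against 4.65 and 4.73 on the no K5-Cre arrays (-1.39 ± 0.14). The groups did not overlap in either. Mir145a and Mir143, smooth muscle microRNAs from 1 transcript, came apart. Mir145a had 7.58 and 6.38 on the K5-Cre arrays, against 8.62 and 8.63 on the no K5-Cre arrays (-1.65 ± 0.39), with the K5-Cre arrays far apart and a call that did not hold once either no K5-Cre array was left out (-1.65 and -1.64), and Mir143 did not pass (-0.11 ± 0.13). Mir140, a cartilage microRNA inside Wwp2, rose by 0.76 ± 0.14. Without no K5-Cre replicate 1 or 3, 2 of the 14 fell and 0 rose.

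**Figure D4:**
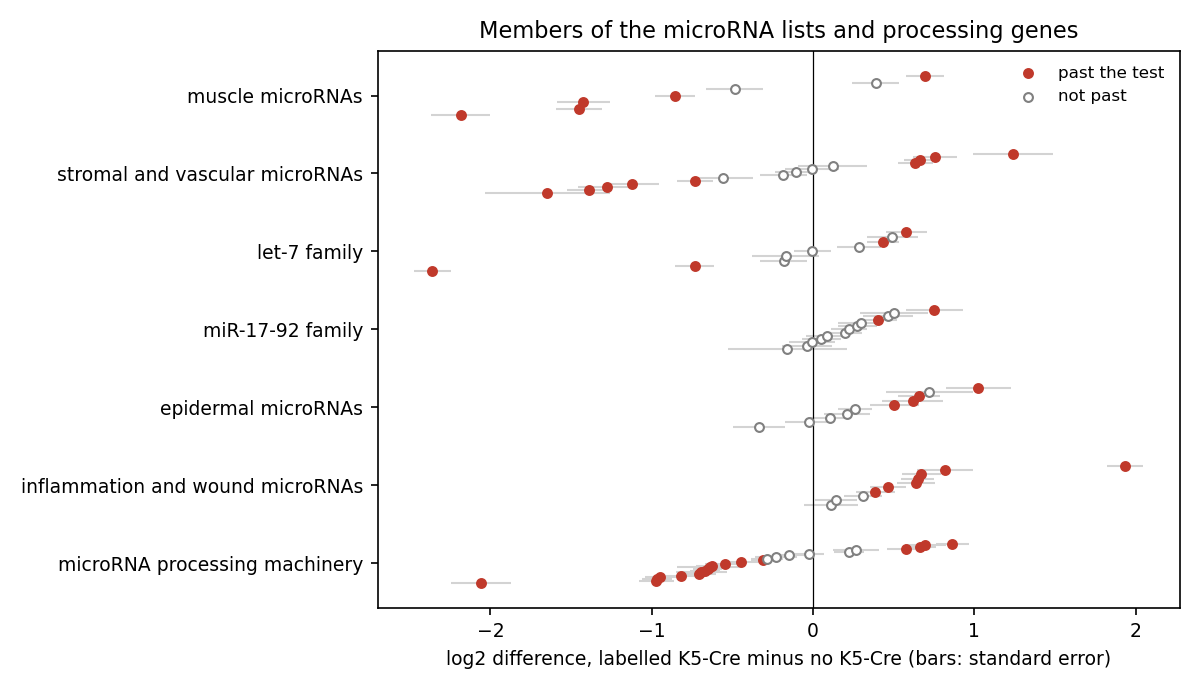
Log2 difference, K5-Cre minus no K5-Cre, of each gene of 6 microRNA lists and of the processing genes (horizontal axis, grey bars for the standard error, n = 2 arrays per group), sorted within each list. Red points passed the test and open points did not. The inflammation list has 7 red points above 0 and the muscle list 4 below 0.

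The largest falls outside the locus, beside those above, were Mir717 (-2.95 ± 0.26) and Mir701 (-2.55 ± 0.14), both chosen after their values were seen. Mir717 had 5.47 and 6.25 on the K5-Cre arrays, against 8.82 and 8.81 on the no K5-Cre arrays, and its host gene Gpc3, a growth-restraining glypican, fell by 3.34 ± 0.12. Mir15b and Mir16-2, a pair on chromosome 3 of the cell-cycle restraining miR-15 family and chosen in the same way, fell by 2.17 ± 0.14 and 0.71 ± 0.15. Their relatives on chromosome 14 were Mir15a, which fell by 0.85 ± 0.20, and Mir16-1, which did not pass (0.38 ± 0.15).

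Outside the locus, 108 member clusters lie within 10 kb of another, in 44 groups. In 27 of these groups at least 1 cluster passed the test. All members passed in the same direction in 6 groups, lower in 3 of them and higher in 3, and 1 group, the let-7 set on chromosome 13, held calls in both directions. The 3 groups that fell whole were Mir99a with Mirlet7c-1, Mir15b with Mir16-2, and Mir133a-1 with Mir1a-2. Those that rose whole were Mir212 with Mir132, Mir194-2 with Mir192, and Mir23a with Mir27a and Mir24-2. These groups were chosen after their values were seen. Of the 258 clusters outside the locus 39.1% passed the test, and how often neighbours would agree by that share was not tested. The call of Mir24-2 did not hold once either no K5-Cre array was left out, and Mir212 and Mir132 did not both keep theirs. The largest of the 44 groups held 5 clusters. By the same gap of 10 kb, the locus splits into 3 groups of 7, 2 and 30 clusters and 1 single cluster.

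A gene of the RefSeq table on the same chromosome and strand spans 90 of the member microRNAs, with 72 host genes and 91 pairs. Spearman's rho between the difference of the microRNA and that of its host was 0.58 over the 91 pairs, which share the same arrays and in part the same host. Both passed the test in 20 pairs, of which 12 were lower in both, 6 were higher in both and 2 were opposite. In 41 pairs the host fell, and in 27 of these the microRNA did not pass. Of all 258 microRNA clusters outside the locus, 157 did not pass. The imprinted gene Mest, host of Mir335, fell by 4.21 ± 0.09, while Mir335 had 6.04 and 6.37 on the K5-Cre arrays, against 6.39 and 6.38 on the no K5-Cre arrays (-0.19 ± 0.15). Igf2, the imprinted growth factor gene, fell by 2.003 ± 0.13, while Mir483 within it rose. Mir483 had 9.15 and 9.23 on the K5-Cre arrays, against 8.53 and 8.52 on the no K5-Cre arrays (0.67 ± 0.10). Its call did not hold once either no K5-Cre array was left out. Slit2, a guidance ligand, fell by 2.78 ± 0.11 with Mir218-1 at -1.53 ± 0.19, and Slit3 fell by 2.01 ± 0.26 with Mir218-2 at -0.16 ± 0.13; these 2 pairs were chosen after their values were seen.

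**Figure D5:**
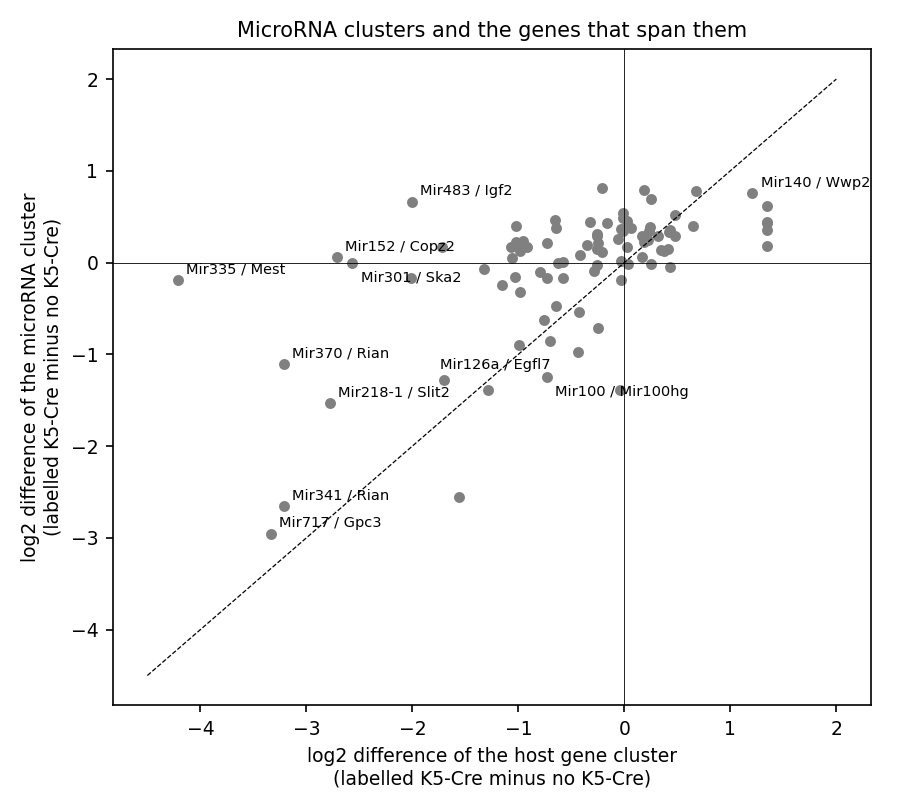
Log2 difference of the microRNA cluster (vertical axis) against that of the gene that spans it (horizontal axis), both K5-Cre minus no K5-Cre, for 91 pairs. The dashed line marks equal differences. Many pairs with a host below -1 have a microRNA near 0, while Mir341 with Rian, Mir717 with Gpc3 and Mir126a with Egfl7 lie near the line.

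The genes that make and use microRNAs were lower more often than higher. Of 24 processing genes 14 fell, 4 rose and 6 did not pass, with a median of -0.49. Of the 24, 20 were brighter than the median cluster. Bright clusters also fell more often than they rose, since of the 17777 brighter than the median 6195 fell and 4151 rose. Drosha and its partner Dgcr8, which cut the hairpin out of the primary transcript, fell by 0.97 ± 0.11 and 0.95 ± 0.10. Dicer1, which cuts the hairpin to the mature duplex, had 9.30 and 9.36 on the K5-Cre arrays, against 10.31 and 10.29 on the no K5-Cre arrays (-0.97 ± 0.09). Ago2, the Argonaute with slicing activity, fell by 0.65 ± 0.09. The largest fall was that of Tut4, a uridylyl transferase that marks let-7 precursors, with 7.62 and 8.13 on the K5-Cre arrays, against 9.92 and 9.95 on the no K5-Cre arrays (-2.06 ± 0.19). Its relative Tut7 rose by 0.70 ± 0.13, Lin28a, which blocks let-7 processing, by 0.86 ± 0.10, the RNA editing enzyme Adar by 0.66 ± 0.10 and the Dicer partner Tarbp2 by 0.58 ± 0.12. The export factor Xpo5 (-0.28) and its cofactor Ran (-0.03) did not pass. Leaving out no K5-Cre replicate 1 or 3 left 4 of the 24 lower and 1 higher.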

How the data were processed

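The deposited series table holds log2 values of 35557 clusters on each of 4 Affymetrix MoGene 1.0 ST arrays, used as deposited; their summarisation and normalization are not given in the sources used here. A second deposited table covers 1396 clusters on build mm9. Per the file headers it holds a linear signal intensity called raw, normalized values and fold ratios against no K5-Cre replicate 1. The normalized values equal the log2 of the raw intensity minus its mean over the no K5-Cre arrays, within 1.64e-06. Clusters in this second table had to reach at least 4-fold on at least 1 array and a signal in the 20th to 100th percentile, per the file headers. The log2 of its intensity differed from the series table by up to 2.47.

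All clusters were fitted with limma 3.58.1 in R 4.3.3 (lmFit, eBayes with a variance trend, 2 against 2, two-sided, Benjamini-Hochberg over all clusters, 5.13 moderated degrees of freedom), without a filter, since microRNA clusters are dim and a filter on the mean keeps those that 1 group lifts. An exact permutation test of 2 against 2 cannot go below p = 0.333. Errors are moderated standard errors, with a median of 0.14 over the members, and the number of arrays limits their precision. Platform symbols number 1 for 21789 clusters, several for 1621 and none for 12147. Tables were handled with pandas 2.3.3, the fit was tested on simulated data, and 0 columns were left unused.

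The named microRNAs are the 12 largest falls and 12 largest rises past the test with groups that do not overlap, every locus member, the members of the lists, and their hosts. Where a listed gene has more than 1 cluster, its brightest on average stands for it. Locus limits, hosts and sequences come from RefSeq tables on GRCm38.p6. The members, the locus and all lists were chosen with earlier results of these data known. The alternatives were another scaling, a filter on low values, no variance trend, each array left out in turn and members with several symbols.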

Additional observations from a re-analysis of the deposited data

How the results depend on the processing

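No paired analysis was possible because the labels give no pairing of arrays between the groups. A filter on the mean kept 69 of the 298 clusters, 18 at the locus and 51 elsewhere, and 53 passed in place of 139. At the locus 16 were lower in place of 38. Of the others 30 were higher in place of 68 and 7 lower in place of 33. The median differences were -2.52 at the locus and 0.43 elsewhere. Of all clusters kept, 10831 of 17777 passed, and 40.4% of these were higher. Since the filter used the mean of all 4 arrays, a locus cluster could be kept by its no K5-Cre signals alone. Leaving out each array in turn gave 58 to 154 microRNA clusters past the test, 37 to 38 locus clusters lower, and 3 to 75 higher and 16 to 41 lower elsewhere. The locus median was then -2.84 to -2.65 and that of the others 0.14 to 0.19. The high ends of the counts came without a K5-Cre array, and in those fits more of all clusters also passed. The share of 48.6% of all clusters, found with all arrays, is thus not the background for these high ends. The low ends of the counts came without no K5-Cre replicate 1 (59 past, 6 higher and 16 lower elsewhere) or without replicate 3 (58, 3 and 18). In these 2 fits the lone control is assumed to vary like the K5-Cre pair. Of 77 named clusters past the test, 28 lost the call without replicate 1 and 31 without replicate 3. With all arrays, the share of higher among calls outside the locus was 67.3%, set beside 50% among the calls over all clusters.

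The median of the others was 0.26 with arrays shifted to the same median, 0.12 after quantile normalization and 0.19 as deposited, while that of all clusters was 0.16, 0.08 and 0.09. Both scalings, the fit without a variance trend and the addition of clusters with several symbols kept the counts of calls over all members, the locus and the others within 1.5 times. Among the lists, counts of calls moved by more than this for epidermal and muscle microRNAs. Under quantile normalization 2 in place of 4 epidermal microRNAs rose. With arrays shifted to the same median 2 in place of 1 muscle microRNAs rose. Other lists moved less, such as 5 in place of 7 inflammation and wound microRNAs higher under quantile normalization. Under quantile normalization 4 named calls were lost, those of Mir132 (0.26), Mir200c (0.58), Mir31 (0.36) and Mir34a (0.37). The cause of each change was not tested. On the K5-Cre arrays 23 and 22 of the 40 locus signals lie under the 25th percentile of all clusters.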
